A study of Mus musculus with 3 samples.

Results

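The genes described here encode the adrenergic receptors at which metoprolol and tamsulosin act: Adrb1, the beta-1 receptor blocked by metoprolol, and Adra1a and Adra1b, a pair of alpha-1 receptors blocked by tamsulosin. They were chosen by name as the drug targets and not by any measured value, and they make up 3 of the 18545 genes in the matrix. Single-cell RNA sequencing was performed on retinas of C57BL/6J mice aged 8 weeks, with 1 pooled library per group. The WT library came from wild-type mice on base chow, the rd10-vehicle library from female rd10 mice on the same chow, and the rd10-TMB library from female rd10 mice whose chow held tamsulosin, metoprolol and bromocriptine together. The rd10 libraries are called vehicle and TMB for short. Bromocriptine acts on dopamine receptors, and no library received any of the drugs alone. Rd10 mice carry a point mutation in Pde6b, the rod phosphodiesterase, and lose their rods. All mice, the WT mice included, were reared in the dark, which slows this loss. The WT pool held both sexes and the rd10 pools held females only.

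Beta-1 receptors couple to Gs proteins, which activate adenylyl cyclases and raise cAMP, and cAMP in turn activates protein kinase A. Alpha-1 receptors couple to Gq proteins, which activate phospholipase C beta, and the IP3 it makes releases calcium from the endoplasmic reticulum. Noradrenaline and adrenaline are the ligands of both receptor types, and G protein-coupled receptor kinases and arrestins switch the receptors off. A transcript count is no measure of receptor protein or of drug effect.

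In the GENCODE annotation of GRCm38, which corresponds to the mm10 build of the files, Adrb1 lies on the plus strand of chromosome 19 from 56722199 to 56733113, and its coding transcript has 1 exon. Adra1a lies on the plus strand of chromosome 14 from 66635251 to 66771168, with 5 coding transcripts. Adra1b lies on the minus strand of chromosome 11 from 43774606 to 43901210, with 3 coding transcripts. None of these 3 genes overlaps another annotated gene, so their reads need not be shared with an antisense partner.

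The 250 bases before the annotated starts of Adrb1 and Adra1b are shown because these genes differed so widely in where they were detected. RefSeq, on GRCm38.p6, gives 1 start for Adrb1 and a pair of starts for Adra1b, and capitals mark the motifs searched, read 5′ to 3′ on the strand of the gene.
Adrb1, chr19:56721867-56722116, plus strand: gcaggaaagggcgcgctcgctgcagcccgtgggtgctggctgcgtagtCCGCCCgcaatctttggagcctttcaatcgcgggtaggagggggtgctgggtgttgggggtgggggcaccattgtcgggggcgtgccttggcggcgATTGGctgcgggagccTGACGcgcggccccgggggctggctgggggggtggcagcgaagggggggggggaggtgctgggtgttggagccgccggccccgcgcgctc
Adra1b, chr11:43836490-43836739, minus strand: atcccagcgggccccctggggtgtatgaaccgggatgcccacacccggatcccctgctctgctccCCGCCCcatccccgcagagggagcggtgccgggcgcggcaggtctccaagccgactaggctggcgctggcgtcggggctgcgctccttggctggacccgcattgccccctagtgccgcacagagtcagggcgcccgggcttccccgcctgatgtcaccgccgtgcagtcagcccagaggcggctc
Adra1b, chr11:43901238-43901487, minus strand: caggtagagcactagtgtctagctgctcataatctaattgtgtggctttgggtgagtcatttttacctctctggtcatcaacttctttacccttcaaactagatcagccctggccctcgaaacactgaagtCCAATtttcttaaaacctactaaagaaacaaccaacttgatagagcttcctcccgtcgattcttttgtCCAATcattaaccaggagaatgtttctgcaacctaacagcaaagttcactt
The motifs were the short cAMP response element (TGACG), the CCAAT box (CCAAT), the GC box (GGGCGG), the core bound by the photoreceptor and bipolar factors CRX and OTX2 (TAATCC) and the TATA box (TATAAA), each on both strands. Adrb1 held this element 86 to 90 bases before the start, a CCAAT box and a GC box, which 17.8%, 33.8% and 32.7% of all 32851 promoter windows of this length held. The Adrb1 window was 74.0% G or C, against a median of 52.4% over all windows. The first Adra1b window shown held a GC box and the second a pair of CCAAT boxes. The CRX and OTX2 core, present in 6.25% of all windows, and the TATA box, present in 12.4%, were in none of the 3. These matches describe letters in a window and are not binding sites.

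The libraries held 4478 WT, 5952 vehicle and 4812 TMB cells, with 18882951, 37002532 and 29192530 UMIs (unique molecular identifiers, which count captured transcript molecules). Levels are given as CPM (counts scaled by the summed UMIs of all cells of that class and library). Intervals are 95% intervals that cover counting error only, since with 1 library per group no difference between groups could be tested against the spread between mice, and no p-value is given. A log2 ratio between libraries is called past 1.5-fold where at least 20 UMIs stood behind it. Cell classes were named from marker genes, with "-like" for cells that carry the markers of a type. Müller glia (MG)-like, rods-like, rod bipolar cell (RBC)-like, cones-like and amacrine-like cells are among them. The ON cone bipolar-like name rested on 5 of 8 markers, none of them among the top 10 genes of the cluster, and clusters 6 and 10 kept their numbers because markers did not settle on 1 type. In all, 25 cell barcodes occurred in more than 1 library.

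Adrb1 was the most often detected of the receptors, with 6182 UMIs in 2759 cells, and its transcripts were counted mainly in cone photoreceptors and in 2 kinds of bipolar cell. Cones-like cells held 48.3% of all Adrb1 UMIs, RBC-like cells 35.4% and cluster 8, a cluster of OFF cone bipolar-like cells, 8.14%. In cones-like cells the level was 639 CPM in WT (598 to 682), 407 CPM in vehicle (383 to 432) and 475 CPM in TMB (446 to 505). In RBC-like cells it was 349 CPM in WT (323 to 376), 291 CPM in vehicle (270.3 to 312) and 274 CPM in TMB (255 to 295). Cones-like cells stood above RBC-like cells in each library, and the intervals did not overlap. Cluster 8 reached 321 CPM in WT (278 to 369.8), 247 CPM in vehicle (207 to 292) and 274 CPM in TMB (234 to 318). The order of RBC-like cells and cluster 8 could not be told from counting error in any library, as the interval of their log2 ratio held 0 each time, at −0.11 to 0.36 in WT, −0.03 to 0.51 in vehicle and −0.24 to 0.25 in TMB.

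**Figure D1:**
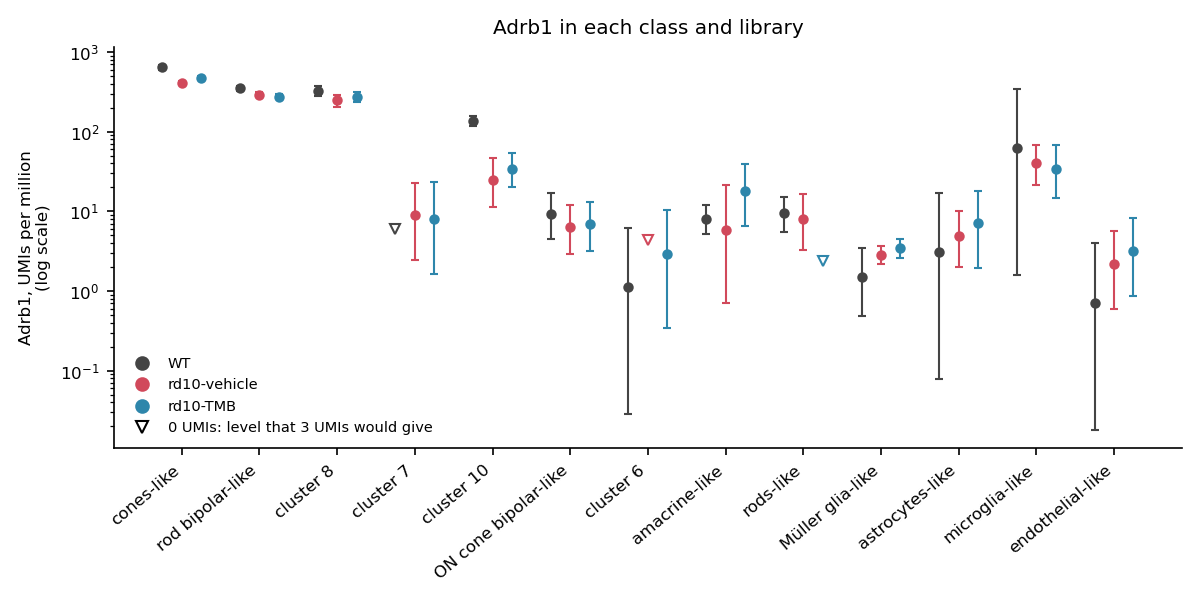
Adrb1 level in CPM, on a log axis, for 13 classes or clusters (x axis) and the 3 libraries (colors), with points at the value and bars for the 95% counting interval. Open triangles mark classes with 0 UMIs at the level that 3 UMIs would give. Cones-like and RBC-like cells and cluster 8 stood highest in each library, and cluster 7 lay far below cluster 8.

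The clusters of OFF cone bipolar-like cells differed in Adrb1. Cluster 7, the other cluster of this class, held 0 UMIs in 143 WT cells, which allows up to 2.10% of cells with a UMI at this depth, 4 UMIs in 178 vehicle cells and 3 UMIs in 128 TMB cells. Cluster 8 held 195, 135 and 173 UMIs in 130, 149 and 140 cells. Both clusters carried the kainate receptor gene Grik1, an OFF cone bipolar marker, and 7 of 8 OFF markers passed in cluster 8 against 4 of 8 in cluster 7. Cluster 8 was led by Irx6, Erbb4 and Hcn4 and cluster 7 by Otor and Slitrk6. Since the clusters were made from the expression of these same cells, their difference in Adrb1 is a description and not a test.

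Most cones-like cells carried several Adrb1 molecules. In WT, 252 of 278 cones-like cells had at least 1 Adrb1 UMI (90.6%) and 109 had 4 or more. In vehicle, 413 of 542 cells had at least 1 (76.2%) and 84 had 4 or more. In TMB, 321 of 412 cells had at least 1 (77.9%) and 111 had 4 or more. The median was 3 Adrb1 UMIs per WT cell and 2 per cell in vehicle and in TMB, with a maximum of 11, 11 and 15. In RBC-like cells, at least 1 UMI was present in 77.5% of 405 WT cells, 62.0% of 729 vehicle cells and 61.1% of 647 TMB cells, with a median of 1 UMI in each library.

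**Figure D2:**
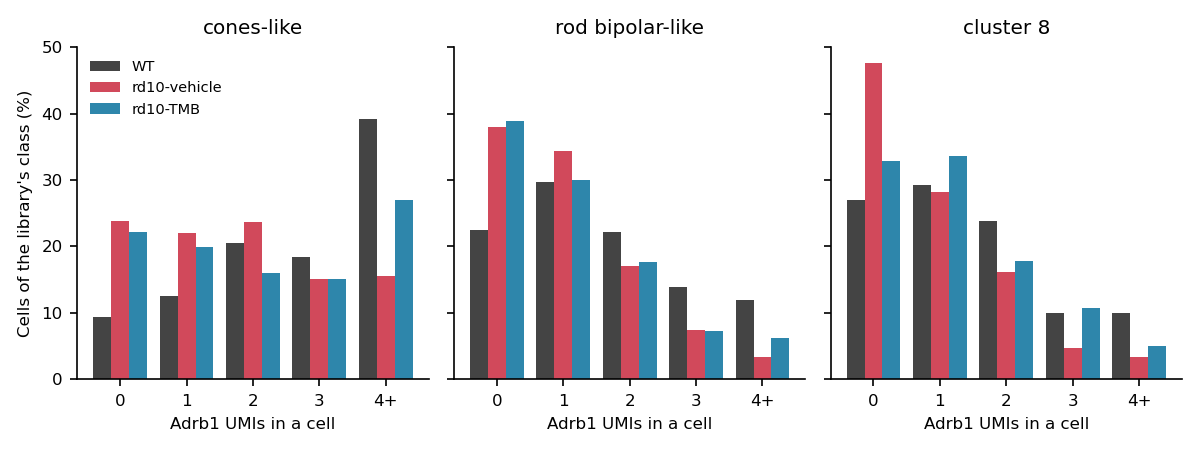
Share of cells (y axis, percent of the class in that library) with 0, 1, 2, 3 or at least 4 Adrb1 UMIs (x axis), for cones-like cells, RBC-like cells and cluster 8. Bars are the 3 libraries. WT cones-like cells were most often at 4 or more UMIs, and the share at 0 was higher in vehicle than in WT in all 3 panels.

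Cells were then thinned to 1000 UMIs each, so that depth could not set these shares. Among thinned cones-like cells 44.7% (38.7 to 50.8) kept an Adrb1 UMI in WT, 34.1% (30.1 to 38.3) in vehicle and 33.0% (28.4 to 37.9) in TMB. Among thinned RBC-like cells the shares were 32.2% (27.6 to 37.0), 26.1% (23.0 to 29.5) and 24.4% (21.1 to 28.0). In thinned cells of cluster 8 they were 28.1% (20.5 to 36.8), 22.1% (15.8 to 29.7) and 26.6% (19.5 to 34.8). In cones-like cells the intervals of both rd10 libraries lay below that of WT, while in RBC-like cells and cluster 8 they overlapped it. Rods-like cells served as the background for free RNA, with shares of 1.05%, 0.615% and 0% in thinned cells, the last with an interval that reached 0.552%. The median depth of rods-like cells before thinning was 1423, 1406 and 1536 UMIs, against 5333, 4857 and 5548.5 UMIs in cones-like cells.

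Between libraries, Adrb1 in cones-like cells was lower in vehicle than in WT, with a log2 ratio of −0.65 (−0.78 to −0.52). This was the only one of the comparisons in cones-like and RBC-like cells that was past 1.5-fold, a limit that 14.9% of all genes tested in these cells passed between vehicle and WT. Among 3223 genes with at least 200 UMIs in the same cells, 0.900% had a lower ratio than Adrb1. The ratio of TMB over WT was −0.43 (−0.56 to −0.30), where 14.2% of genes were past 1.5-fold. The ratio of TMB over vehicle was 0.22 (0.10 to 0.35), where 8.6% of genes were past 1.5-fold and 87.7% of 3673 genes had a lower ratio than Adrb1. In thinned cells this last difference was not detectable. After thinning to 1000 UMIs the cones-like cells held 175 Adrb1 UMIs in 397 TMB cells and 235 in 531 vehicle cells, levels of 441 and 443 CPM, and the log2 ratio was −0.0036 (−0.30 to 0.28), an interval that also holds the unthinned ratio. The ratio of vehicle over WT became −0.49 (−0.78 to −0.19) after thinning, which is short of 1.5-fold.

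Markers of MG also moved with these libraries in cones-like cells, at 323, 743 and 688 CPM in WT, vehicle and TMB, while cone markers stood at 42888, 38808 and 40948 CPM. Their part in the Adrb1 ratios was not tested.

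In RBC-like cells Adrb1 was also lower than WT in both rd10 libraries, with smaller ratios, and TMB was lowest. The log2 ratio was −0.27 (−0.42 to −0.11) for vehicle over WT and −0.35 (−0.50 to −0.20) for TMB over WT. For TMB over vehicle it was −0.08 (−0.23 to 0.07), so that any difference between these libraries was not detectable at this depth. None of these was past 1.5-fold, a limit that 11.7%, 10.8% and 8.48% of all genes in RBC-like cells passed, in this order. The intervals of vehicle over WT in cones-like and RBC-like cells did not overlap. MG markers in RBC-like cells stood at 109.9, 466 and 314.5 CPM, and their part in these ratios was not tested. Leaving out the 1 TMB cell with 10 or more haemoglobin UMIs left 740 of its 741 Adrb1 UMIs and a level of 275 CPM. In cluster 8 the ratios were −0.38 (−0.71 to −0.06) for vehicle over WT, −0.23 (−0.54 to 0.07) for TMB over WT and 0.15 (−0.18 to 0.49) for TMB over vehicle. Over the whole OFF cone bipolar-like class the same ratios were −0.33, −0.01 and 0.32, and none was past 1.5-fold, where 12.4%, 12.7% and 11.6% of genes were. With WT cells limited to those with Xist and no Y-linked UMI, to match the female rd10 pools, the ratios against WT were −0.69, past 1.5-fold, and −0.37.

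**Figure D3:**
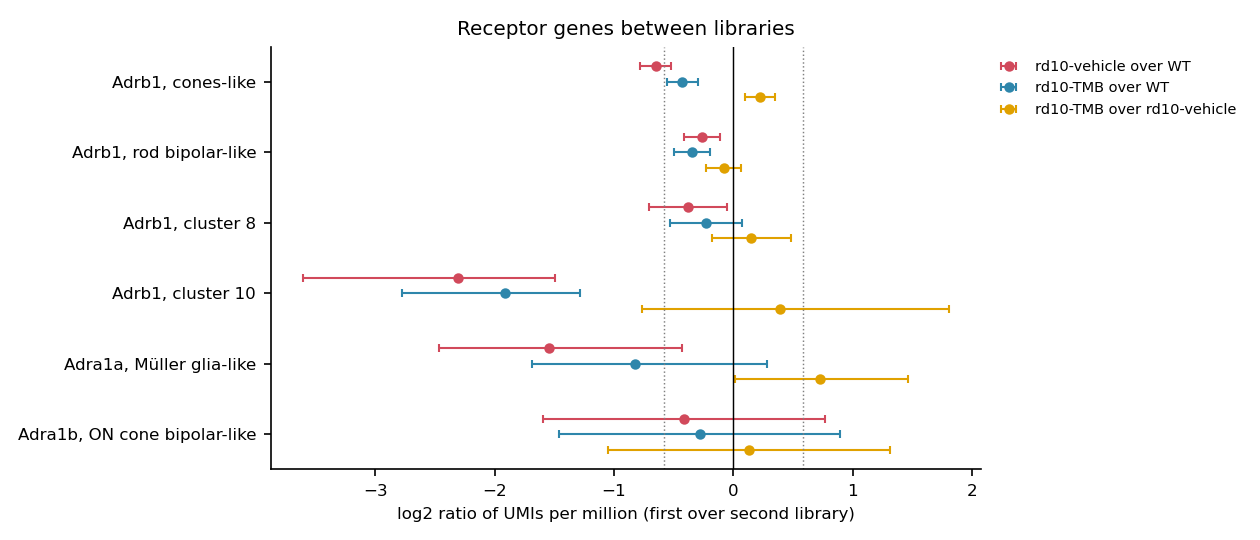
Log2 ratio of CPM between libraries (x axis) for Adrb1 in 4 classes, Adra1a in MG-like cells and Adra1b in ON cone bipolar-like cells (rows), with 95% counting intervals as bars. The dotted lines mark 1.5-fold either way. Adrb1 ratios against WT lay below 0 in all 4 classes shown, with intervals that held 0 for TMB in cluster 8, and the alpha-1 ratios had wide intervals.

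Summed over all cells, Adrb1 was at 108.5 CPM in WT (104 to 113), 55.9 CPM in vehicle (53.6 to 58.4) and 70.7 CPM in TMB (67.7 to 73.8). The log2 ratio of vehicle over WT was −0.96 (−1.04 to −0.87), larger than within cones-like or RBC-like cells. The make-up of the libraries moved with this sum. MG-like cells, which held 126 of the 6182 Adrb1 UMIs, gave 3319917 of the UMIs of the WT library, 22198511 of vehicle and 16777299 of TMB. In such sums, fewer cells of a type and less RNA per cell cannot be told apart.

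In cluster 10 Adrb1 was present in a subset of cells. It stood at 136 CPM in WT (117 to 158), 24.9 CPM in vehicle (11.4 to 47.2) and 34.3 CPM in TMB (20.4 to 54.3), from 179, 9 and 18 UMIs. Both ratios against WT were past 1.5-fold, at −2.31 (−3.61 to −1.50) for vehicle and −1.92 (−2.77 to −1.29) for TMB. The ratio of TMB over vehicle was 0.39 (−0.76 to 1.80). In this cluster 30.6%, 21.4% and 20.8% of all genes were past 1.5-fold in these comparisons. The cluster held ON cone bipolar markers and amacrine markers in different cells. WT cells with an Adrb1 UMI carried 3451 CPM of the 9 amacrine markers and 128 CPM of the 8 ON cone bipolar markers, while cells without it carried 516 and 9384 CPM.

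The cells of cluster 10 with more amacrine than ON cone bipolar marker UMIs numbered 92 in WT, 8 in vehicle and 20 in TMB. They held 178 of 179, 6 of 9 and 17 of 18 of the Adrb1 UMIs, at 261 CPM in WT (224 to 302), 169.9 CPM in vehicle (62.4 to 369.9) and 128 CPM in TMB (74.4 to 204). An Adrb1 UMI was present in 79, 3 and 11 of these cells. Within them the log2 ratio was −0.40 (−2.08 to 0.53) for vehicle over WT and −0.96 (−1.84 to −0.31) for TMB over WT, smaller than over the whole cluster. For TMB over vehicle it was −0.55 (−1.82 to 1.22), of opposite sign to the ratio over the whole cluster, and both intervals held 0. The remaining 147, 99 and 103 cells held 1, 3 and 1 Adrb1 UMIs. The clusters named amacrine-like held little Adrb1, with 25, 2 and 6 UMIs in 756, 105 and 83 cells. This split was chosen after the values were seen.

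**Figure D4:**
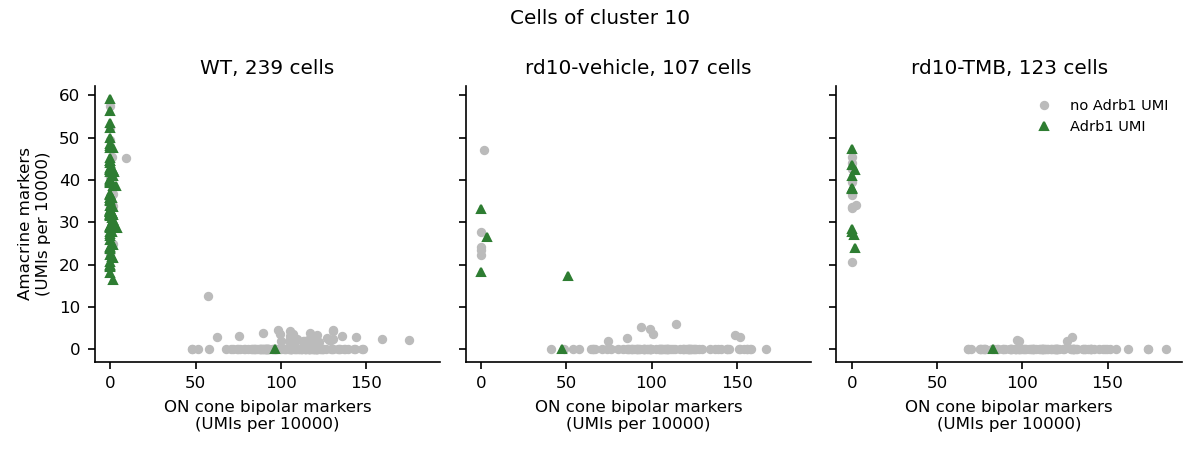
Each point is a cell of cluster 10, placed by its UMIs of the 8 ON cone bipolar markers (x axis) and of the 9 amacrine markers (y axis) per 10000 UMIs, with a panel for each library. Green triangles are cells with an Adrb1 UMI, of which 79 of 80 in WT lie in the group high in amacrine markers.

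In the other large classes Adrb1 was near background. MG-like cells, the largest class, held 5 UMIs in 530 WT cells, 63 in 2492 vehicle cells and 58 in 1748 TMB cells, or 1.51 CPM (0.49 to 3.51), 2.84 CPM (2.18 to 3.63) and 3.46 CPM (2.63 to 4.47). The fitted ratios against WT were past 1.5-fold, at 0.67 (−0.38 to 2.59) and 0.96 (−0.11 to 2.87), but both intervals held 0 and 22.1% and 19.5% of all genes in MG-like cells were past this limit. Cone RNA moved with these counts in the rd10 libraries. In WT the 5 cells with an Adrb1 UMI carried 32 CPM of the 8 cone markers against 99.4 CPM in those without. The vehicle MG-like cells with an Adrb1 UMI carried 1640 CPM of them against 160.2 CPM in those without, and in TMB the values were 2138 and 184 CPM. Per 1000 UMIs of the cone markers, MG-like cells held 15.2, 13.4 and 13.2 Adrb1 UMIs in WT, vehicle and TMB. Cones-like cells held 14.9, 10.5 and 11.6, and RBC-like cells held 3035, 1313 and 1794. The part of cone RNA in the MG-like counts was not tested. In MG-like cells with no cone marker UMI, the Adrb1 levels were 2.13, 1.66 and 1.24 CPM from 4, 15 and 9 UMIs, and the ratios against WT turned to −0.59 and −0.95.

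Rods-like cells held 17 Adrb1 UMIs in 1180 WT cells, 7 in 556 vehicle cells and 0 in 746 TMB cells, the last allowing up to 0.402% of cells with a UMI. Their level was 9.45 CPM in WT (5.51 to 15.1) and 8.13 CPM in vehicle (3.27 to 16.8), and the WT cells with an Adrb1 UMI carried 699 CPM of cone markers against 307 CPM in those without. ON cone bipolar-like cells held 10, 9 and 9 UMIs. Microglia-like cells held 1, 13 and 8 UMIs in 6, 52 and 30 cells, which gave 40.3 CPM in vehicle (21.5 to 68.9) and 34.5 CPM in TMB (14.9 to 68.0).

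Adra1a was detected far less often than Adrb1, with 122 UMIs in 114 cells, and mainly in MG-like cells, which support retinal neurons and held 68.0% of its UMIs. Its level in MG-like cells was 3.92 CPM in WT (2.08 to 6.70), 1.40 CPM in vehicle (0.95 to 1.98) and 2.32 CPM in TMB (1.65 to 3.18). These values rested on 13 UMIs in 13 of 530 cells, 31 UMIs in 29 of 2492 cells and 39 UMIs in 38 of 1748 cells. The vehicle library was lowest, with an interval below that of WT. The log2 ratios were −1.55 (−2.46 to −0.43) for vehicle over WT, −0.82 (−1.69 to 0.28) for TMB over WT and 0.73 (0.02 to 1.46) for TMB over vehicle. All 3 were past 1.5-fold, as were 22.1%, 19.5% and 6.11% of all genes in these cells. Only the second interval held 0. After thinning to 1000 UMIs per cell, 3, 6 and 2 cells kept an Adra1a UMI, and the order of the rd10 libraries turned, with a ratio of −0.70 (−4.41 to 1.42) for TMB over vehicle. Cone markers in cells with and without Adra1a stood at 99.3 and 98.8 CPM in WT, 283 and 211 CPM in vehicle and 64.2 and 266 CPM in TMB. MG markers stood at 42313 and 39774.5 CPM in WT, 42495 and 44629 CPM in vehicle and 43657.5 and 43970 CPM in TMB. Rod markers likewise differed in no common direction, with 596 CPM in WT cells with Adra1a against 738 CPM in those without, 1872 against 985 CPM in vehicle and 457 against 1056 CPM in TMB.

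After MG-like cells, most Adra1a UMIs lay in cluster 8, the OFF cone bipolar-like cluster that also held Adrb1. It held 3 UMIs in 130 WT cells (4.94 CPM, 1.02 to 14.4), 9 in 149 vehicle cells (16.5 CPM, 7.52 to 31.2) and 10 in 140 TMB cells (15.8 CPM, 7.59 to 29.1). The intervals overlapped in all 3 libraries. Cone markers in the cells with and without Adra1a stood at 728 and 1330 CPM in WT, 1472 and 1346 CPM in vehicle and 4244 and 1435 CPM in TMB, and their part in these counts was not tested. Cluster 7 held 1 Adra1a UMI in 449 cells. Rods-like, cones-like and RBC-like cells held 0 Adra1a UMIs in 2482, 1232 and 1781 cells, which allows up to 0.121%, 0.244% and 0.168% of cells with a UMI. This limits detection at the depth of these cells and not the share of cells that express the gene, here and for every count of 0. ON cone bipolar-like cells held 6 UMIs, all in vehicle, in 5 of 501 cells, and endothelial-like cells held 5 UMIs in 4 of 393 cells.

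Adra1b was detected in 64 cells with 78 UMIs, and 53.8% of these lay in ON cone bipolar-like cells. Each library held 14 UMIs there, in 386 WT, 501 vehicle and 398 TMB cells, which gave 13.0 CPM (7.13 to 21.9), 9.79 CPM (5.35 to 16.4) and 10.7 CPM (5.87 to 18.0). The intervals overlapped throughout. The log2 ratios were −0.41 (−1.59 to 0.76) for vehicle over WT, −0.28 (−1.46 to 0.90) for TMB over WT and 0.13 (−1.05 to 1.31) for TMB over vehicle. After thinning to 1000 UMIs, 0, 3 and 2 cells kept an Adra1b UMI, and the ratios against WT turned to 1.54 and 1.49. None of the unthinned ratios was past 1.5-fold, where 17.4%, 16.4% and 10.3% of all genes in these cells were. For the last of these, the interval took in differences of more than 2-fold either way. MG-like cells held 0 Adra1b UMIs in 4770 cells, RBC-like cells 0 in 1781 and rods-like cells 0 in 2482, which allows up to 0.0629%, 0.168% and 0.121% of cells with a UMI at this depth.

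Most amacrine-like cells with Adra1b held 1 UMI, and a pair of cells held more than 2. In WT, 15 UMIs lay in 9 of 756 cells, with 6 in the highest cell. The vehicle library held 0 in 105 cells, which allows up to 2.86% of cells with a UMI. In TMB, 9 UMIs lay in 2 of 83 cells, and 8 of them in a single cell of cluster 5. That cell held 19183 UMIs over 5136 genes, with 8 UMIs of Gad1, the GABA-synthesizing enzyme, and 21 of Gal, the neuropeptide galanin. The log2 ratio of TMB over WT in amacrine-like cells was 2.52 (1.08 to 3.74), and 0.28 without this 1 cell.

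**Figure D5:**
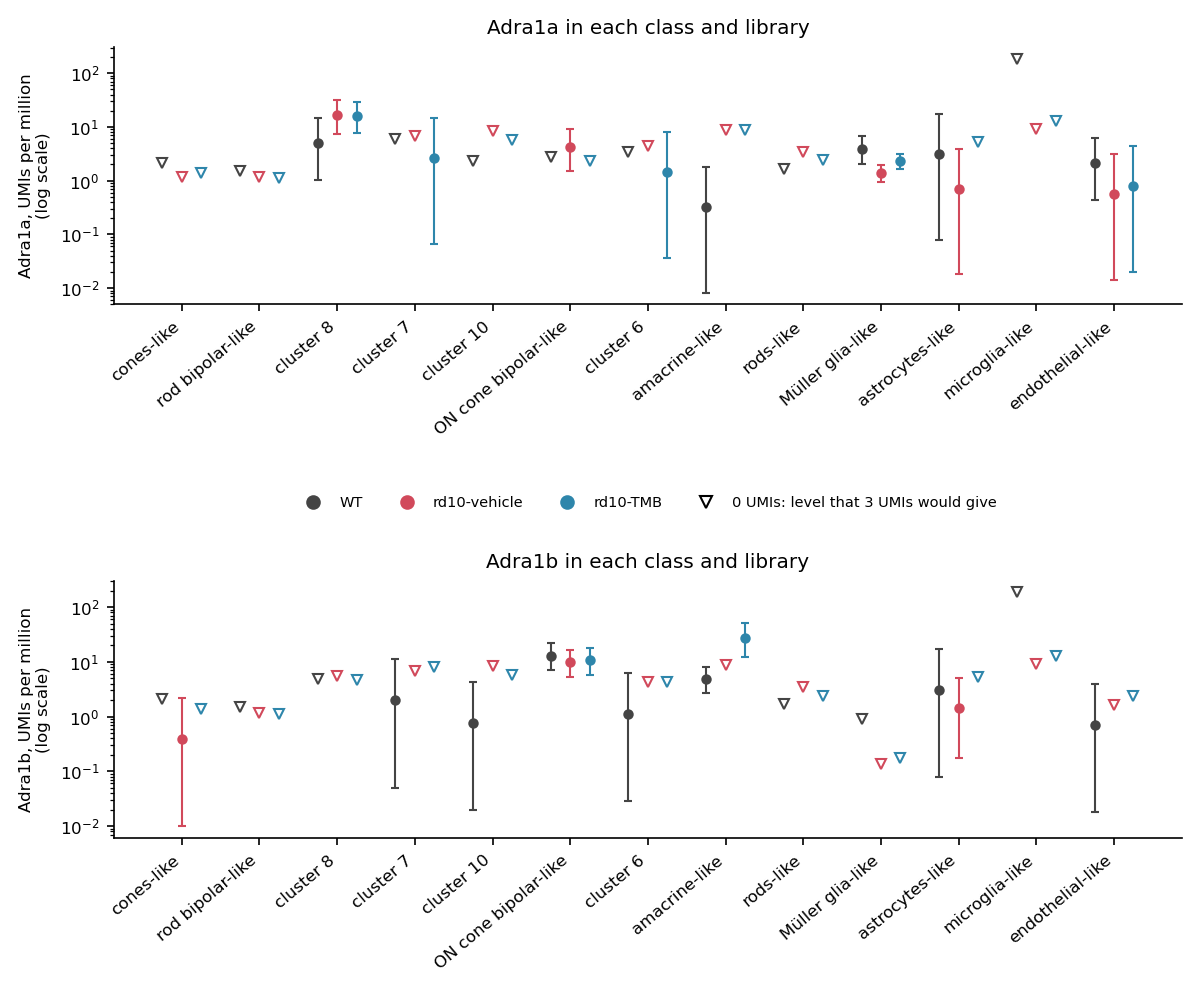
Adra1a (top) and Adra1b (bottom) in CPM, on log axes, for 13 classes or clusters (x axis) and the 3 libraries (colors), with 95% counting intervals. Open triangles mark classes with 0 UMIs at the level that 3 UMIs would give. Adra1a was counted in MG-like cells and cluster 8 in each library, and Adra1b in ON cone bipolar-like cells in each library.

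The receptors rarely met in the same cell at this depth. Adrb1 and Adra1a were both present in 15 cells, 13 of them in cluster 8. Adrb1 and Adra1b were both present in 5 cells, and Adra1a and Adra1b in 0 cells.

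Other adrenergic receptors had other places. Adra1d, the third alpha-1 receptor, was counted in MG-like cells with 6, 64 and 39 UMIs in WT, vehicle and TMB, or 1.81, 2.88 and 2.32 CPM, out of 113 UMIs in all. Its gene overlaps an annotated gene on the other strand. MG-like cells thus held Adra1a and Adra1d and 0 UMIs of Adra1b. Adra2a, a Gi-coupled alpha-2 receptor that lowers cAMP, was highest in horizontal-like cells, at 545 CPM in 18 WT cells and 479 CPM in 6 TMB cells, with 0 UMIs in 4 vehicle cells. Adra2b was highest in WT in astrocytes-like cells (24.7 CPM, 8 UMIs) and in cluster 6 (21.2 CPM, 19 UMIs), and cluster 6 held 1 UMI in vehicle and 0 in TMB. Adra2c was highest in cluster 6, at 114, 178 and 191 CPM, and was also present in MG-like cells at 40.7, 30.8 and 40.4 CPM. Adrb3 was not analysed here.

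Signaling genes around the receptors were taken from 7 lists that held 72 genes of the matrix besides the members: other adrenergic receptors, catecholamine synthesis, transport and breakdown, the Gs and cAMP arm, the Gq and calcium arm, desensitization and NADPH oxidases. In cones-like cells, where Adrb1 was highest, the lists hardly differed between libraries. Of 24 list genes tested between vehicle and WT, 1 was higher past 1.5-fold and 0 were lower, with a median log2 ratio of −0.01 against −0.06 over all genes, of which 14.9% were past this limit. The gene was Crem, a transcription factor of the cAMP response, at 20.4, 36.3 and 27.6 CPM in WT, vehicle and TMB. Between TMB and vehicle, 1 of 25 was higher and 1 lower, with a median of −0.02 against 0.01 and 8.6% of all genes past the limit. The lower gene was Grk4, a receptor kinase, from 18 and 9 UMIs in vehicle and TMB. Between TMB and WT, 1 of 22 was higher, with a median of 0.03 against −0.05 and 14.2% of all genes past the limit. This was Grk6, another receptor kinase, at 8.42 CPM in WT and 15.2 CPM in TMB.

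In RBC-like cells 2 of 31 list genes were higher and 3 lower past 1.5-fold in vehicle than in WT, with a median log2 ratio of −0.14 against 0.02 over all genes, of which 11.7% were past this limit. Pde4d, a phosphodiesterase that degrades cAMP, was at 4.58 CPM in WT, 33.6 CPM in vehicle and 25.2 CPM in TMB, and its ratio of vehicle over WT was 2.74 (1.89 to 4.05). Prkcb, a protein kinase C, was at 13.2, 40.5 and 31.5 CPM. Adcy1, a calcium-stimulated adenylyl cyclase, was lower in both rd10 libraries, at 78.9, 36.7 and 39.3 CPM. Of 30 tested between TMB and WT, 3 were higher and 3 lower, with a median of −0.13 against 0.0041 and 10.8% of all genes past the limit, and of 31 tested between TMB and vehicle, 1 was higher and 1 lower, with a median of −0.0038 against −0.02 and 8.48% of all genes past it. These were Akap5, from 7 and 13 UMIs, and Adcy9, from 20 and 11 UMIs. The lower genes against WT also took in Prkar2b and Grk5 in both comparisons, each from 13 UMIs in WT.

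In OFF cone bipolar-like cells 4 of 34 list genes were higher and 4 lower in TMB than in vehicle, with a median of −0.11 against −0.02 over all genes, of which 11.6% were past the limit. At a 2-fold limit 3 passed. Adcy5, an adenylyl cyclase, was at 17.1, 12.1 and 28.8 CPM in WT, vehicle and TMB, and Prkca, a protein kinase C, at 14.4, 11.1 and 28.8 CPM. Adcy1 was at 2.70, 17.1 and 3.97 CPM. Dgkz, a kinase that removes diacylglycerol, was at 39.6, 43.3 and 23.8 CPM. Against WT, 2 of 32 were higher and 3 lower in vehicle (median −0.06 against 0.0018, 12.4% of all genes), and 3 of 32 were higher and 2 lower in TMB (median −0.13 against 0.0053, 12.7% of all genes). Grk2, a receptor kinase, was lower in both, at 35.1, 19.1 and 15.9 CPM.

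In MG-like cells, where most Adra1a was counted, 7 of 54 list genes were higher and 5 lower in vehicle than in WT, close to the 22.1% of all genes past 1.5-fold there, with a median of 0.01 against −0.07 over all genes. Akap12, an anchoring protein for protein kinase A, was at 6.93 CPM in WT, 67.9 CPM in vehicle and 37.9 CPM in TMB, and its ratio of TMB over vehicle was −0.84 (−0.98 to −0.71). Gch1, which makes the cofactor for catecholamine and nitric oxide synthesis, held 0, 115 and 33 UMIs, and was at least 5.73-fold higher in vehicle and at least 2.18-fold higher in TMB than the level of 3 UMIs in WT. Gna14, a Gq-family alpha subunit, was at 27.1, 72.8 and 65.9 CPM. Grk4 was at 9.34, 16.8 and 16.6 CPM. Rgs2, which turns off Gq, was lower in vehicle than in WT, at 249.7, 151 and 178 CPM, as was Prkcb, at 25.6, 14.1 and 15.3 CPM. Against WT, 6 of 53 were higher and 6 lower in TMB, with a median of 0.03 against −0.09, where 19.5% of all genes were past the limit. Among the lower was Grk3, a receptor kinase, at 69.0, 48.8 and 41.3 CPM. Between TMB and vehicle 2 of 57 were higher and 2 lower, with a median of −0.03 against −0.02, where 6.11% of all genes were past it. Of these, Slc18a2, the vesicular monoamine transporter, and Nox1, an NADPH oxidase, were higher, from 13 and 15 UMIs and from 11 and 16 UMIs in vehicle and TMB.

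In ON cone bipolar-like cells, which held most of Adra1b, 2 of 34 list genes were higher and 3 lower in vehicle than in WT, and 0 of 33 were higher and 2 lower in TMB, where 17.4% and 16.4% of all genes were past 1.5-fold. Prkcb was lower in both, at 108, 67.9 and 69.0 CPM. Adcy1 was at 20.5, 4.20 and 14.6 CPM. Between TMB and vehicle 2 of 34 were higher and 1 lower, against 10.3% of all genes. The share of amacrine-marker cells in cluster 10 moved with the libraries, and its part in the list counts there was not tested. In this cluster 6 of 34 were higher and 6 lower in vehicle than in WT, 3 of 35 were higher and 6 lower in TMB than in WT, and 1 of 25 was higher and 7 lower in TMB than in vehicle. The shares of all genes past 1.5-fold in these comparisons were 30.6%, 21.4% and 20.8%.

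The genes whose levels over clusters were most like those of Adrb1 were sought among 11387 genes over 16 clusters, by Pearson correlation of log2(CPM + 5). The clusters share libraries and depth, and these values describe the pattern only. Among the 5 highest were Slc24a4 (0.77), a sodium, calcium and potassium exchanger, Nrm (0.76), a nuclear membrane protein, Nhlrc2 (0.75) and Kcne2 (0.74), a potassium channel subunit. Ranked by Spearman correlation, none of these remained among the 5 highest.

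Nhlrc2 is a neighbor of Adrb1, which was noticed after the values were seen. It lies on chromosome 19 from 56548261 to 56603503, 119 kb from Adrb1 and on the same strand. Other genes within 500 kb of Adrb1 were Dclre1a at a correlation of 0.53, Ccdc186 at 0.49 and Ablim1 at −0.18, while the median over all genes was 0.0078. In cones-like cells Nhlrc2 was at 112, 80.3 and 85.1 CPM in WT, vehicle and TMB. Kcne2, on chromosome 16, was at 877, 448 and 463 CPM there. Both were lower in each rd10 library than in WT, as Adrb1 was, whereas Slc24a4 was at 67.4, 77.2 and 71.8 CPM and Nrm at 61.8, 61.2 and 64.4 CPM.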

How the data were processed

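Each library pooled single retinas of 4 mice per the labels. The study's methods name fewer mice for the rd10 pools, and this was not settled. Retinas were dissociated with papain and run on 10x Genomics v3 chemistry. The authors aligned reads to mm10 with Cell Ranger 6.0.1, removed doublets before deposit, kept cells with at least 500 genes in Seurat 3.2.2, corrected for library and clustered the cells. No doublet caller was run here. Values in the matrix, as deposited by the authors, are natural log values of 1 plus the UMIs per 10000 UMIs of a cell, and the deposited cell table holds the total UMI count, gene number, library and cluster of each cell. All 32620606 entries were turned back into UMIs, and 100% came out whole within 0.001 UMI. No cell filter was added.

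Markers had to be 2-fold over other cells and to reach 20 CPM. Naming took 3 of them with at least 1 in the top 10 genes, or 5 where no other type had 3. Names were rebuilt here and may differ from those of the study. UMIs were summed per class and library. Log2 ratios had a pseudocount of 1 UMI, and a gene was tested where both libraries together held at least 20 UMIs. Intervals at 95% were exact Poisson for levels, exact Clopper-Pearson for shares and exact conditional for ratios. A count of 0 was given the limit of 3 counts. The authors' MAST tests were not used. The members, lists and alternatives were chosen with earlier results of these data known. Genes were named by this rule: the members; list genes past 1.5-fold where a member had at least 20 UMIs, at most 3 per direction, list and comparison; the other adrenergic receptors; and the 5 genes most like a member with at least 200 UMIs. Not every gene the rule allows is printed. Some results under it are not reported here. The alternatives were other scalings, a pseudocount of 0.1 UMI, a mean over cells, filters on mitochondrial share, genes and UMIs, WT cells taken as female, thinning, a 2-fold limit and a minimum of 50 UMIs. The ratio code was tested on simulated counts. Python 3.11.15, numpy 2.4.6, scipy 1.17.1 and pandas 2.3.3 were used.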

Additional observations from a re-analysis of the deposited data

How the results depend on the processing

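The Adrb1 ratios of vehicle and TMB over WT in cones-like and RBC-like cells stayed below 0 in every alternative run, from −0.67 to −0.49 for vehicle and −0.49 to −0.35 for TMB in cones-like cells, and from −0.38 to −0.25 and −0.46 to −0.34 in RBC-like cells. Of 253 settings over 28 ratios of the receptors between libraries, 30 had the opposite sign to the ratio reported, and 8 of these were ratios past 1.5-fold. The Adra1b ratios against WT in ON cone bipolar-like cells turned under thinning and as a mean over cells. Of 9 alternatives, 7 kept the sign for vehicle over WT and 6 for TMB over WT. Thinning to 1000 UMIs per cell brought the cones-like ratios to −0.0036 for TMB over vehicle and −0.49 for vehicle over WT, the Adra1a ratios in MG-like cells to −0.70 for TMB over vehicle and −2.13 for TMB over WT, and the Adrb1 ratio of cones-like over RBC-like cells to 0.69 in WT and 0.60 in TMB. The cause was not tested. The Adrb1 ratio in MG-like cells turned to −0.26 as a mean over cells, −0.91 when thinned and −0.59 without cells with a cone marker for vehicle over WT, and to −1.13 when thinned and −0.95 without those cells for TMB over WT. Without the cells of cluster 10 rich in amacrine markers, its ratios turned to 1.95 for vehicle and 0.69 for TMB over WT, from 1 to 3 UMIs per library. The alternatives that leave out cells by markers were chosen after seeing the data.

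Unthinned shares of cells with Adrb1 in WT, vehicle and TMB were 90.6%, 76.2% and 77.9% in cones-like cells, 77.5%, 62.0% and 61.1% in RBC-like cells and 73.1%, 52.3% and 67.1% in cluster 8. Counts of list genes depended on the limits. In the order TMB over vehicle, vehicle over WT and TMB over WT, a 2-fold limit left 1, 0 and 0 in cones-like cells, 3, 1 and 1 in OFF cone bipolar-like cells and 1, 5 and 5 in MG-like cells, and 0 for TMB over vehicle in RBC-like cells. A minimum of 50 UMIs left 0 in cones-like cells for TMB over vehicle and for TMB over WT, 0 and 3 in RBC-like cells for TMB over vehicle and vehicle over WT, 2 and 2 in OFF cone bipolar-like cells for TMB over vehicle and TMB over WT, and 2 and 7 in MG-like cells for TMB over vehicle and vehicle over WT. No paired analysis was possible because each group has 1 library. Depth limits what can be said of Adra1a and Adra1b, with 122 and 78 UMIs in all.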
